A study of Homo sapiens with 9 samples.

Results

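The aminoacyl-tRNA synthetases of the cytosol and of mitochondria were followed in SKOV3, a human cell line established from an ovarian tumour, after exposure to 2 acetylated amino sugars. The list held 38 genes named by family, drawn up with earlier results of these data known: 19 cytosolic enzymes, 16 mitochondrial enzymes and 3 scaffold proteins of the multi-synthetase complex. A gene entered where a probe set of the array named it and no other gene, which gave 30 genes among the 14215 genes measured in this way, each with 1 probe set. The 30 were 17 cytosolic enzymes, 12 mitochondrial enzymes and the scaffold protein AIMP1. FARSB, EARS2, SARS2, VARS2 and YARS2 shared their probe sets with other genes, no probe set was listed for KARS1, AIMP2 and EEF1E1, and these 8 genes were not analysed here. All 30 were tested, with no filter on low values.

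The cells came from 9 culture flasks, 3 in each of 3 groups, and each flask gave 1 array. The first group received Ac-4-deoxy-GlcNAc, which is N-acetylglucosamine in its 4-deoxy form with acetylated hydroxyl groups. The second received Ac-GlcNAc, the peracetylated parent sugar, both at 50 µM, and the third was untreated. All flasks were kept for 3 days in the same serum-containing medium, and the sources used here do not say whether untreated flasks received a vehicle. By their names the compounds differ in the hydroxyl group at carbon 4 of the sugar, which the deoxy analog lacks. They were given at 1 dose and 1 time, to 1 cell line.

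Aminoacyl-tRNA synthetases join amino acids to their transfer RNAs, the step that gives the genetic code its meaning during translation. Cytosolic and mitochondrial protein synthesis mostly use separate enzymes, both encoded in the nucleus. Most enzymes serve a single amino acid, while EPRS1 charges both glutamate and proline, and several cytosolic enzymes assemble with 3 scaffold proteins into a large complex. ATF4, a transcription factor made during amino acid shortage and other stresses, is known to raise the transcription of many cytosolic synthetase genes, and WARS1 is also known as a gene induced by interferon gamma.

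With Ac-4-deoxy-GlcNAc, 3 cytosolic synthetase genes rose against untreated cells: WARS1 by 1.69-fold, CARS1 by 1.5-fold and IARS1 by 1.37-fold. No synthetase gene passed the test as lower, though 14 of the 30 differences were negative. None of the 12 mitochondrial enzymes passed the test in either direction. The test was limma's moderated test on log2 values, run two-sided on all 17859 probe sets with p-values adjusted by Benjamini-Hochberg, and genes with an adjusted p under 0.05 are called changed. The 3 called genes are 10.0% of the 30 members, beside 11.0% of all probe sets called in this comparison, so the number of synthetase genes called was near the background. By direction, 5.38% of all probe sets were called higher and 5.64% lower. The arrays of 7 members lay above all untreated arrays and those of 3 below, beside 13.0% and 19.1% of all probe sets. Among the 7590 probe sets within the range of the members' mean log2 levels, 1598 lay above and 953 below. Of these 7590, 680 were called higher and 315 lower.

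WARS1 encodes the cytosolic tryptophan enzyme. Its log2 values were 9.78, 10.03 and 10.21 with Ac-4-deoxy-GlcNAc, 9.53, 9.55 and 9.57 with Ac-GlcNAc, and 9.31, 9.21 and 9.21 in untreated cells. Each group lay apart from the others without overlap, highest with Ac-4-deoxy-GlcNAc and lowest in untreated cells. The means were 10.00 ± 0.22, 9.55 ± 0.02 and 9.25 ± 0.06 in the same order (SD, n = 3 arrays each). The log2 difference between Ac-4-deoxy-GlcNAc and untreated cells was 0.76 (SE 0.11, 95% interval 0.53 to 0.99, limma adjusted p = 0.00159).

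CARS1, the cytosolic cysteine enzyme, had log2 values of 7.44, 7.12 and 7.45 with Ac-4-deoxy-GlcNAc, 7.02, 7.11 and 6.92 with Ac-GlcNAc, and 6.89, 6.68 and 6.68 in untreated cells. The Ac-4-deoxy-GlcNAc arrays were above every untreated array, and replicate 2 lay only just above the highest Ac-GlcNAc array. The log2 difference between Ac-4-deoxy-GlcNAc and untreated cells was 0.59 (SE 0.11, 95% interval 0.34 to 0.83, limma adjusted p = 0.00745). With each array's SD over probe sets as a covariate the difference was 0.55 and the adjusted p 0.0513, which ended the call.

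IARS1, the cytosolic isoleucine enzyme and a member of the multi-synthetase complex, had log2 values of 11.00, 11.02 and 11.12 with Ac-4-deoxy-GlcNAc, 10.90, 10.95 and 10.90 with Ac-GlcNAc, and 10.71, 10.41 and 10.65 in untreated cells. The groups did not overlap, and the untreated arrays spread the most. The log2 difference between Ac-4-deoxy-GlcNAc and untreated cells was 0.46 (SE 0.10, 95% interval 0.24 to 0.67, limma adjusted p = 0.0130). Leaving out replicate 3 of Ac-4-deoxy-GlcNAc gave a difference of 0.42 and ended the call (adjusted p = 0.0633), as did adding the array SD as a covariate, with a difference of 0.32 (adjusted p = 0.0748).

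**Figure D1:**
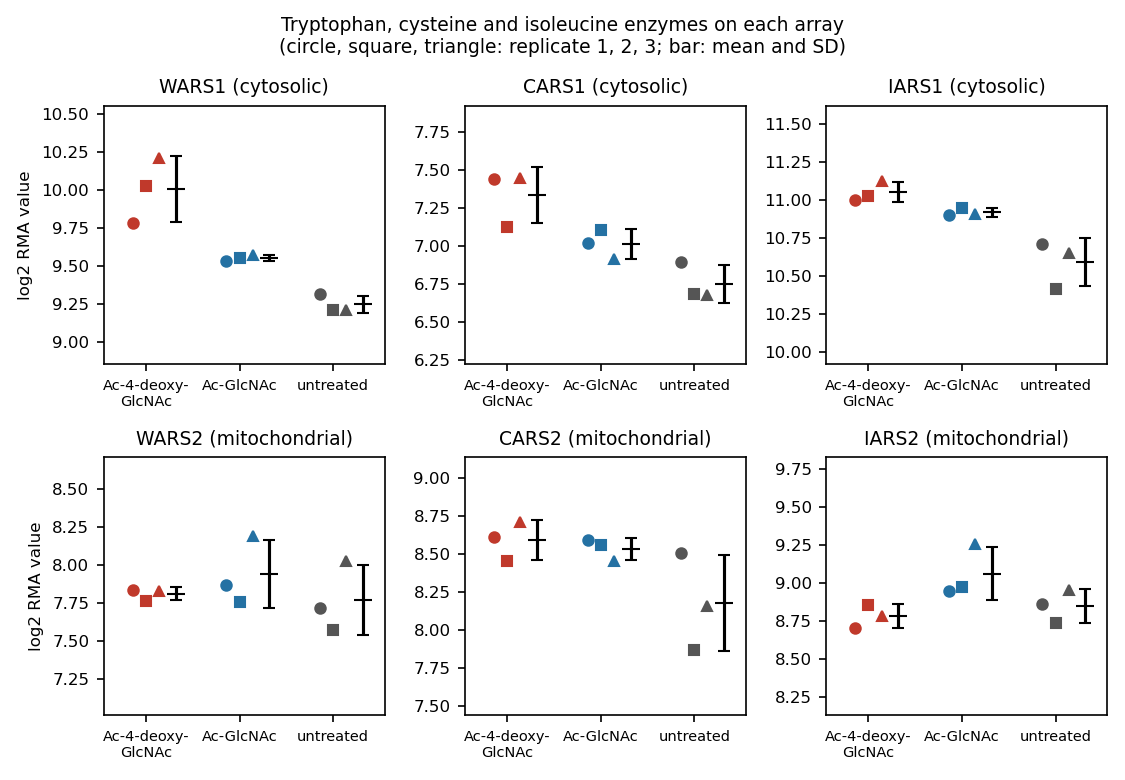
Log2 RMA values of WARS1, CARS1 and IARS1 (upper row) and of the mitochondrial enzymes of the same amino acids (lower row) on each of 9 arrays, with symbols for replicates and bars for the group mean and SD (n = 3). The WARS1 arrays run from 9.78 to 10.21 with Ac-4-deoxy-GlcNAc, from 9.53 to 9.57 with Ac-GlcNAc and from 9.21 to 9.31 in untreated cells, while the WARS2 groups overlap.

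Promoters are shown because ATF4 is a known regulator of many cytosolic synthetase genes and interferon gamma of WARS1. Whether either regulator acted in these cells was not tested. RefSeq promoters of GRCh38.p14, from 250 bases before to 50 bases after the start, were found for 33 of the 38 members. They were searched on both strands for TGATGNAA, the core of the C/EBP-ATF response element that ATF4 binds. The motif was present in the promoter of CARS1 and IARS1 and of 5 further cytosolic enzymes, 7 of the 16 cytosolic enzymes with an entry. It was present in 1 of 14 mitochondrial enzymes, YARS2, and in 4.46% of all 27305 genes with an entry. Each line gives the gene strand 5′ to 3′, with the match in capitals; TTGCATCA is TGATGCAA read on the opposite strand. CARS1, IARS1, AARS1, MARS1 and TARS1 share these letters, GARS1 differs from them within the motif, and NARS1 carries the motif on its own strand.
CARS1, chr11:3057402-3057441, minus strand: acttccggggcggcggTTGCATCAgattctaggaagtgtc
IARS1, chr9:92293687-92293726, minus strand: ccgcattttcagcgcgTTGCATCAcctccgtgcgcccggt
AARS1, chr16:70289670-70289709, minus strand: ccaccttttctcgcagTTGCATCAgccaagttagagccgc
MARS1, chr12:57488048-57488087, plus strand: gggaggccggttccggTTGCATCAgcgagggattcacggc
TARS1, chr5:33440951-33440990, plus strand: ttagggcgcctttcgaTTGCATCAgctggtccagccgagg
GARS1, chr7:30594829-30594868, plus strand: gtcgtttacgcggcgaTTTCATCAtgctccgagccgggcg
NARS1, chr18:57621808-57621838, minus strand: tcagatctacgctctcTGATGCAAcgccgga

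Of these 7 genes, 2 were called higher with Ac-4-deoxy-GlcNAc than in untreated cells, and their log2 differences ran from -0.14 in NARS1 to 0.59 in CARS1, with a median of 0.21. The other 7 measured cytosolic enzymes with a promoter entry included 1 called gene, WARS1, and had a median difference of -0.06. YARS1, LARS1 and VARS1 had no entry and are in neither set, with differences of 0.33, -0.05 and 0.02. Beside these counts, 5.38% of all probe sets were called higher, and 680 of the 7590 within the members' range of level. The difference between the 2 sets of 7 was not tested. The WARS1 windows held no TGATGNAA. They held the core of the interferon-stimulated response element, whose match is in capitals on the first of the lines that follow, and which is present in 4.38% of genes and among the members otherwise only in EARS2. They also held TTCNNNGAA, the gamma-interferon activated site, which is present in 9.38% of genes and among the members also in CARS1, TARS1, PARS2 and WARS2. The 2 WARS1 matches are printed because this gene had the largest difference among the members. A match describes the letters of these windows and not the binding of a factor.
WARS1, interferon-stimulated response element core, chr14:100375377-100375418, minus strand: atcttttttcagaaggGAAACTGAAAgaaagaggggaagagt
WARS1, gamma-interferon activated site, chr14:100375465-100375505, minus strand: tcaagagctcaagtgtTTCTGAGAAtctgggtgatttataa

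The other 14 cytosolic enzymes were not called with Ac-4-deoxy-GlcNAc against untreated cells. YARS1, the tyrosine enzyme, came closest. Its log2 values lay between 9.93 and 10.11 with Ac-4-deoxy-GlcNAc and between 9.61 and 9.86 in untreated cells, so the arrays did not overlap, and the difference was 0.33 (SE 0.11, limma adjusted p = 0.0567); without untreated replicate 3 it was 0.41 and called (adjusted p = 0.0439). MARS1, the methionine enzyme, differed by 0.27 (adjusted p = 0.0746) and AARS1, the alanine enzyme, by 0.21 (adjusted p = 0.125), both without overlap of arrays. QARS1, the glutamine enzyme, lay the other way: its arrays ran from 10.12 to 10.26 with Ac-4-deoxy-GlcNAc, all below the 10.28 to 10.44 of untreated cells, with a difference of -0.15 (adjusted p = 0.255). SARS1, RARS1, EPRS1, HARS1 and LARS1 differed by -0.16, -0.10, -0.06, -0.06 and -0.05. FARSA, GARS1, TARS1 and VARS1 differed by 0.09, 0.08, 0.04 and 0.02. GARS1 encodes the glycine enzyme of both compartments.

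NARS1, the asparagine enzyme, had the widest spread within groups. Its log2 values were 10.37 to 11.00 with Ac-4-deoxy-GlcNAc, 10.32 to 10.86 with Ac-GlcNAc and 10.46 to 11.16 in untreated cells, and the 95% interval of its Ac-4-deoxy-GlcNAc difference ran from -0.57 to 0.30. Over the 17 cytosolic enzymes the median log2 difference between Ac-4-deoxy-GlcNAc and untreated cells was 0.04, and 10 of 17 were positive (58.8%). Over all probe sets the median was -0.05 and 41.9% were positive. Mean log2 levels of the members ran from 7.03 in CARS1 to 10.85 in IARS1, above the median of 6.63 over all probe sets. Among the 7590 probe sets within this range the median difference was 0.06 and 60.8% were positive. The cytosolic enzymes did not stand above these probe sets. The median level was 8.55 over these probe sets, 9.73 over the cytosolic and 7.94 over the mitochondrial enzymes, so the range matched neither set closely. This range was chosen after the values were seen. The sign of the cytosolic median depended on the scaling, being negative under cyclic loess, quantile normalization and array weights. The 12 cytosolic enzymes described elsewhere as ATF4 targets held all 3 called genes and had a median of 0.15. Of these 12, 8 were positive (66.7%), beside 60.8% of the probe sets within the members' range of level. SARS1, NARS1, EPRS1 and LARS1 were negative. This list makes up 12 of the 17 measured cytosolic enzymes. Called higher were 5.38% of all probe sets and 680 of the 7590 within the members' range of level. The 5 measured cytosolic enzymes outside that list, FARSA, HARS1, QARS1, RARS1 and VARS1, held no called gene and had a median of -0.06. For none of them did limma give an unadjusted p under 0.05 either. The difference between these lists was not tested, and their medians were not recomputed under other scalings.

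Within the multi-synthetase complex, 6 of 7 listed enzymes were measured, IARS1 was the called member, and the median log2 difference between Ac-4-deoxy-GlcNAc and untreated cells was -0.05. The 11 measured enzymes outside the complex held the other 2 called genes and had a median of 0.08. Beside these counts, 5.38% of all probe sets were called higher, and 680 of the 7590 within the members' range of level. The difference between the complex enzymes and the others was not tested. AIMP1, the scaffold protein that was measured, had log2 values of 8.52 to 8.71 with Ac-4-deoxy-GlcNAc, 8.66 to 8.81 with Ac-GlcNAc and 8.56 to 8.83 in untreated cells. These ranges overlapped, and AIMP1 was called in no comparison.

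The 12 mitochondrial enzymes had a median log2 difference of 0.01 between Ac-4-deoxy-GlcNAc and untreated cells, and 6 of 12 were positive. No mitochondrial gene was called by limma, and 2 had an unadjusted p under 0.05 upward and 1 downward, beside 13.3% and 17.9% of all probe sets. Among the 7590 probe sets within the members' range of level, 1676 passed this limit upward and 774 downward. CARS2, the mitochondrial cysteine enzyme, had values of 8.61, 8.46 and 8.71 with Ac-4-deoxy-GlcNAc, 8.59, 8.56 and 8.45 with Ac-GlcNAc, and 8.50, 7.87 and 8.16 in untreated cells. Untreated replicate 2 was far below the other arrays and untreated replicate 1 lay within the range of the treated ones. The CARS2 difference between Ac-4-deoxy-GlcNAc and untreated cells was 0.42 (SE 0.14, 95% interval 0.12 to 0.71, limma adjusted p = 0.0662). NARS2, the mitochondrial asparagine enzyme, differed by 0.25 (adjusted p = 0.141). Without untreated replicate 1 both were called higher with Ac-4-deoxy-GlcNAc, CARS2 at 0.58 (adjusted p = 0.0116) and NARS2 at 0.35 (adjusted p = 0.0457). Without untreated replicate 2 they were at 0.26 (adjusted p = 0.217) and 0.16 (adjusted p = 0.394), and with the array SD as a covariate at 0.21 (adjusted p = 0.467) and 0.08 (adjusted p = 0.718).

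HARS2, the mitochondrial histidine enzyme, had the lowest difference of the members at -0.29 (SE 0.12, adjusted p = 0.119), and it was called lower with array weights (-0.41, adjusted p = 0.0295). Its arrays ran from 7.16 to 7.19 with Ac-4-deoxy-GlcNAc, below both Ac-GlcNAc (7.35 to 7.73) and untreated cells (7.28 to 7.67). MARS2, the mitochondrial methionine enzyme, likewise averaged 6.97 ± 0.03 with Ac-4-deoxy-GlcNAc, 7.32 ± 0.19 with Ac-GlcNAc and 7.18 ± 0.07 in untreated cells (SD, n = 3 each), with the Ac-4-deoxy-GlcNAc arrays below all others, a difference from untreated cells of -0.21 (adjusted p = 0.184). PARS2, IARS2, LARS2 and TARS2 differed by -0.14, -0.07, -0.03 and -0.03, and WARS2, AARS2, RARS2 and FARS2 by 0.04, 0.06, 0.08 and 0.16.

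**Figure D2:**
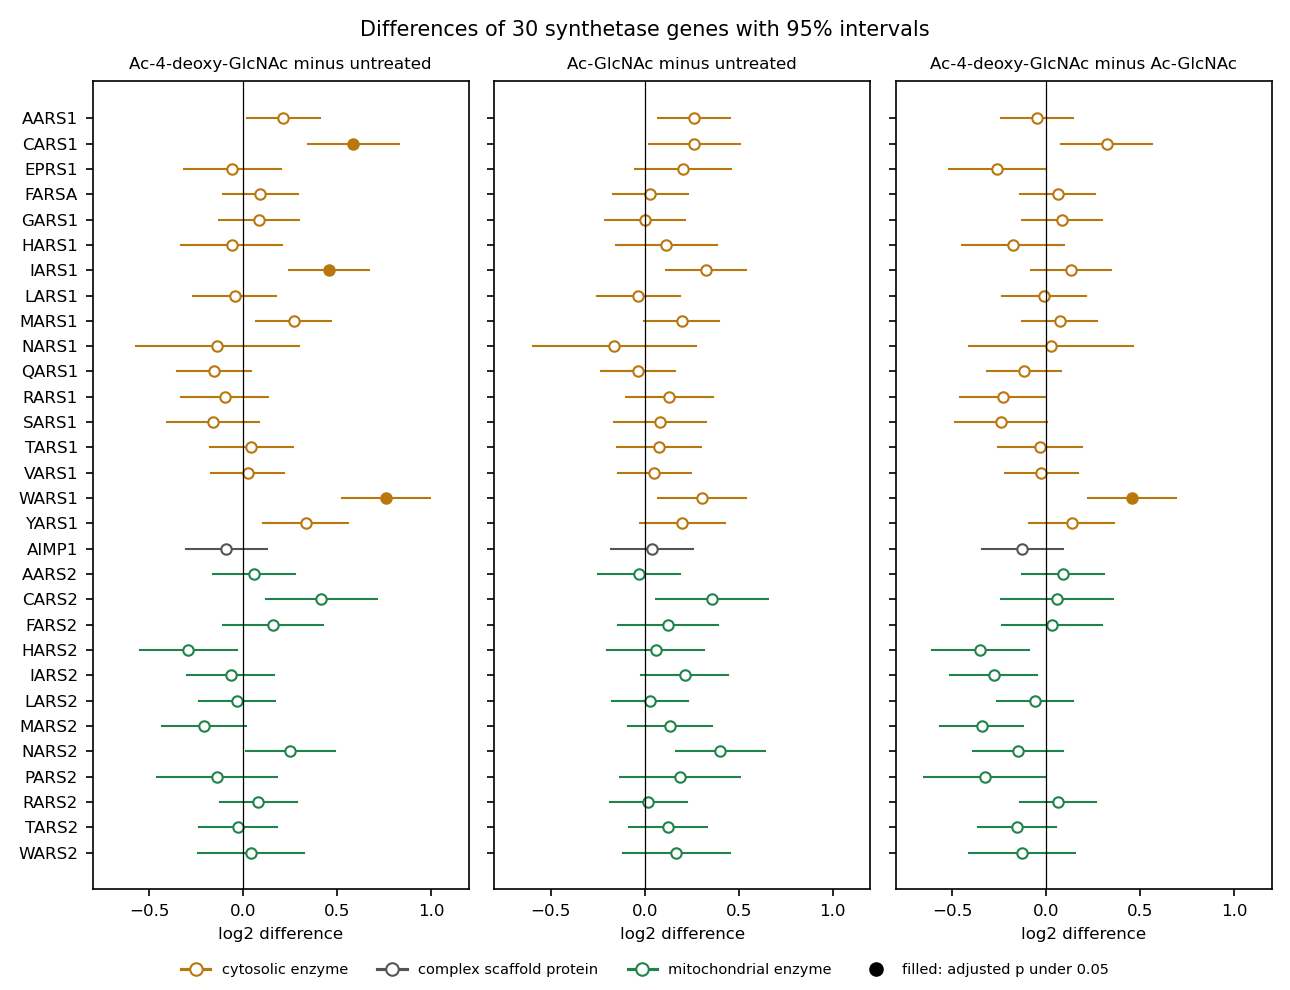
Log2 differences (points) with 95% intervals (lines) of the 30 measured genes in the 3 comparisons, cytosolic enzymes above, the scaffold protein AIMP1 between and mitochondrial enzymes below; filled points passed the test. WARS1, CARS1 and IARS1 are filled at 0.76, 0.59 and 0.46 in the first panel, no point is filled in the second, and WARS1 is filled at 0.45 in the third.

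With Ac-GlcNAc no synthetase gene was called against untreated cells, beside 0.442% of all probe sets. An unadjusted limma p under 0.05 was found for 6 of the 30 genes, all higher with Ac-GlcNAc. That limit was passed upward by 10.3% of all probe sets, and by 1443 of the 7590 within the members' range of level. NARS2 differed the most, at 0.40 (SE 0.11, 95% interval 0.16 to 0.64, adjusted p = 0.0889), with arrays at 9.63 to 9.71 with Ac-GlcNAc and 9.08 to 9.47 in untreated cells. CARS2 differed by 0.36 (adjusted p = 0.135) and IARS1 by 0.32 (95% interval 0.11 to 0.54, adjusted p = 0.0965). WARS1 differed by 0.31 (95% interval 0.07 to 0.54, adjusted p = 0.120), CARS1 by 0.26 (adjusted p = 0.164) and AARS1 by 0.26 (adjusted p = 0.111). Without untreated replicate 1, NARS2, CARS2 and IARS1 were called higher (adjusted p = 0.0326, 0.0370 and 0.0483), and with array weights NARS2, AARS1, IARS1, WARS1 and CARS2 were called higher (adjusted p from 0.0232 to 0.0430). Without untreated replicate 2, NARS2, CARS2 and IARS1 differed by 0.31, 0.20 and 0.24 (adjusted p = 0.276, 0.474 and 0.306). With the array SD as a covariate they differed by 0.16, 0.06 and 0.13, none of them called.

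The arrays of 6 genes lay above all untreated arrays with Ac-GlcNAc and those of none lay below, beside 13.0% and 19.3% of all probe sets. Of the 7590 probe sets within the members' range of level, 1752 lay above and 254 below. The difference was positive in 26 of the 30 genes, 86.7%. Among the 7590 probe sets within the members' range of level 76.5% were positive in this comparison, and 47.3% of all probe sets were. The count depended on the scaling: 16 of 30 were positive under cyclic loess and under quantile normalization, and 15 with array weights. The median was 0.12 over the cytosolic and 0.13 over the mitochondrial enzymes. Over all probe sets it was -0.02, and 0.11 over those within the members' range of level.

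Between the compounds, WARS1 was the only member called. It was 1.37-fold higher under Ac-4-deoxy-GlcNAc than under Ac-GlcNAc, a log2 difference of 0.45 (SE 0.11, 95% interval 0.22 to 0.69, limma adjusted p = 0.0455), beside 2.38% of all probe sets called, 0.896% higher and 1.48% lower. This is the comparison of 1 pair of compounds at a matched dose and time. The call was close to the threshold: it was kept without untreated replicate 2 (adjusted p = 0.0340) or Ac-4-deoxy-GlcNAc replicate 1 (0.0266) and lost without each of the other 7 arrays (0.0537 to 0.159). CARS1 was not called, at 0.32 (95% interval 0.08 to 0.56, adjusted p = 0.180), although its arrays did not overlap. For IARS1 the difference was 0.13, with an interval of -0.08 to 0.35 (adjusted p = 0.674). The rises of CARS1 and IARS1 against untreated cells were therefore not shown to differ between the compounds.

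By unadjusted limma p under 0.05, 2 of the 30 genes were higher and 6 lower between the compounds, beside 5.34% and 8.26% of all probe sets. The arrays of 3 genes lay above those of Ac-GlcNAc and the arrays of 7 below, beside 9.56% and 11.6%. Within the members' range of level, 391 of 7590 probe sets were higher and 931 lower by that unadjusted p. The arrays of 605 of these 7590 lay above and those of 1291 below. Here 4 of the 12 mitochondrial enzymes were positive (33.3%), beside 37.4% of probe sets within the members' range of level and 50.9% of all. The median log2 difference of the mitochondrial enzymes was -0.14, beside -0.05 over probe sets within that range and 0.00 over all. The arrays of 4 mitochondrial genes were all lower under Ac-4-deoxy-GlcNAc than under Ac-GlcNAc: HARS2, MARS2, IARS2 and TARS2. HARS2 differed by -0.35 (95% interval -0.61 to -0.09, adjusted p = 0.169), MARS2 by -0.34 (-0.57 to -0.12, adjusted p = 0.113) and IARS2 by -0.28 (-0.51 to -0.05, adjusted p = 0.236). PARS2, the mitochondrial proline enzyme, differed by -0.33 (adjusted p = 0.350) with arrays that overlapped. None of these passed the test. On Ac-GlcNAc replicate 3 the mitochondrial enzymes were high, and without that array their median was -0.07. Among cytosolic enzymes, EPRS1, RARS1 and SARS1 differed by -0.26, -0.23 and -0.24 (adjusted p = 0.359, 0.367 and 0.382). The cytosolic median was -0.01, and it was positive under cyclic loess, quantile normalization and array weights.

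The cytosolic and the mitochondrial enzymes of 1 amino acid were compared by the change in the gap between them on the same array, for the 11 amino acids with both measured. For tryptophan, WARS2 had log2 values of 7.84, 7.76 and 7.83 with Ac-4-deoxy-GlcNAc, 7.87, 7.76 and 8.19 with Ac-GlcNAc, and 7.71, 7.57 and 8.02 in untreated cells, and these groups overlapped. The gap between WARS1 and WARS2 was 0.72 wider on the log2 scale with Ac-4-deoxy-GlcNAc than in untreated cells, and 0.58 wider than under Ac-GlcNAc. In both cases the arrays did not overlap, and the exact two-sided permutation p was 0.1, the smallest that 3 arrays against 3 allow.

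For isoleucine, IARS2 had values of 8.71, 8.86 and 8.79 with Ac-4-deoxy-GlcNAc, 8.95, 8.98 and 9.26 with Ac-GlcNAc, and 8.86, 8.74 and 8.95 in untreated cells. The Ac-4-deoxy-GlcNAc arrays were the lower ones against Ac-GlcNAc and overlapped with untreated cells. The gap between IARS1 and IARS2 was 0.52 wider with Ac-4-deoxy-GlcNAc than in untreated cells and 0.41 wider than under Ac-GlcNAc (exact permutation p = 0.1 each). For cysteine, CARS1 and CARS2 lay on the same side, and the gap changed by 0.17 against untreated cells (exact permutation p = 0.3) with arrays that overlapped. In all, 9 such permutation tests were run, on the 3 amino acids with a called gene, and none could reach 0.05. These amino acids were chosen for a gene called on the same arrays. Their gaps are therefore no evidence separate from those calls.

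Over the 11 amino acids the gap was wider, with no overlap of arrays, for 4 with Ac-4-deoxy-GlcNAc against untreated cells (alanine, isoleucine, methionine and tryptophan) and narrower for arginine, with a median change of 0.16. With Ac-GlcNAc against untreated cells it was wider for alanine alone and narrower for none, with a median of 0.06. Between Ac-4-deoxy-GlcNAc and Ac-GlcNAc it was wider for cysteine, isoleucine, methionine and tryptophan and narrower for arginine, with a median of 0.17. The 3 comparisons share arrays, so these counts are not independent of each other. The cysteine, isoleucine and tryptophan gaps also hold genes called on these same arrays. No share of non-overlapping gaps was computed for other gene pairs, and the gaps were not recomputed under other scalings. The median level was 9.73 over the cytosolic and 7.94 over the mitochondrial enzymes. Array SDs over probe sets were 1.92 to 2.08 in untreated cells, 2.14 to 2.18 with Ac-GlcNAc and 2.07 to 2.17 with Ac-4-deoxy-GlcNAc. The part of these differences in the gaps was not tested.

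**Figure D3:**
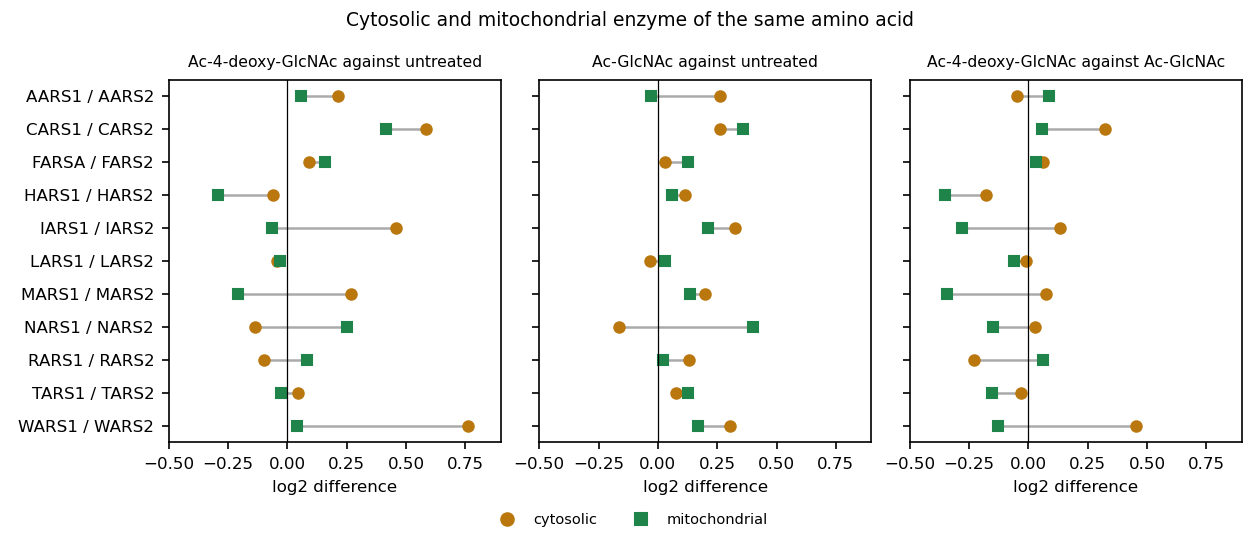
Log2 difference of the cytosolic enzyme (circle) and the mitochondrial enzyme (square) of each of 11 amino acids in the 3 comparisons, joined by a line. Tryptophan stands at 0.76 and 0.04 in the first panel, and cysteine at 0.59 and 0.42.

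By array, the median deviation of the 17 cytosolic enzymes from their mean over all 9 arrays was 0.03, 0.03 and 0.04 with Ac-4-deoxy-GlcNAc, 0.02, -0.02 and 0.09 with Ac-GlcNAc, and -0.11, -0.08 and -0.02 in untreated cells. For the 12 mitochondrial enzymes it was -0.02, -0.04 and -0.05 with Ac-4-deoxy-GlcNAc, 0.02, 0.03 and 0.19 with Ac-GlcNAc, and -0.04, -0.14 and 0.07 in untreated cells. The cytosolic set was above the mitochondrial set on all 3 Ac-4-deoxy-GlcNAc arrays, the 2 sets were nearly level on Ac-GlcNAc replicate 1, and untreated replicate 2 had the cytosolic set above. Ac-GlcNAc replicate 3 was the highest of the 9 arrays for 17 of the 30 genes, beside 12.8% of all probe sets. Untreated replicate 2 was the lowest for 11 of 30, beside 24.1% of all probe sets.

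**Figure D4:**
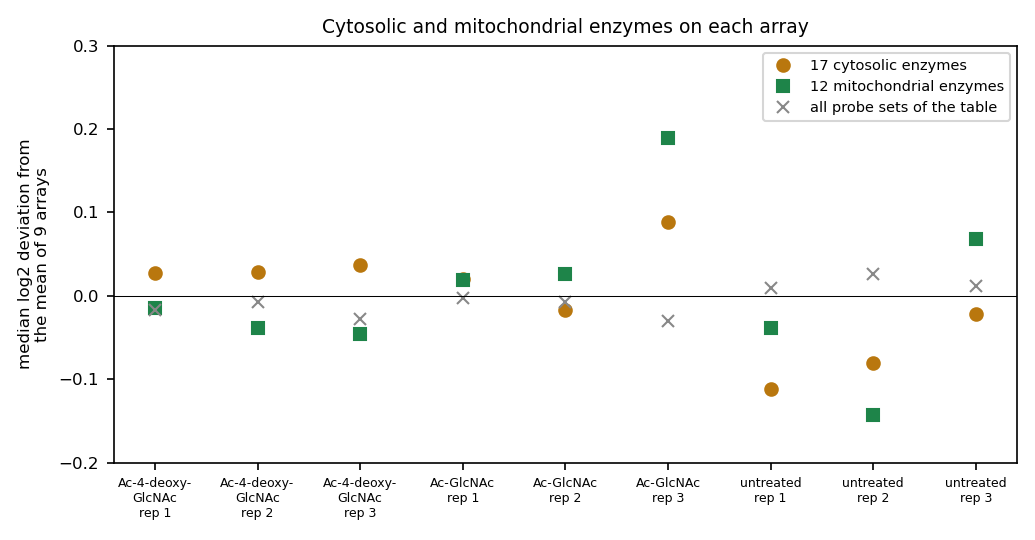
Median log2 deviation from the mean of 9 arrays on each array, for 17 cytosolic enzymes (circles), 12 mitochondrial enzymes (squares) and all 17859 probe sets (crosses). The mitochondrial set is at 0.19 on Ac-GlcNAc replicate 3 and at -0.14 on untreated replicate 2.

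Across the arrays as a whole, the SD over probe sets was 2.07 to 2.17 with Ac-4-deoxy-GlcNAc, 2.14 to 2.18 with Ac-GlcNAc and 1.92 to 2.08 in untreated cells, the lowest being untreated replicate 2. The part of this difference in the results was not tested beyond the fit with the array SD as a covariate. Of 11 epithelial and ovarian tumour markers measured, 10 were above the median level of the table, WT1 being the exception, while none of 5 leukocyte and 3 endothelial markers were. Of 5 fibroblast markers 1, LUM, was above it. Their mean log2 level was 5.29 to 5.33 with Ac-4-deoxy-GlcNAc, 5.22 to 5.32 with Ac-GlcNAc and 5.44 to 5.62 in untreated cells. In the same order the epithelial and ovarian markers averaged 8.96 to 9.09, 9.10 to 9.17 and 9.18 to 9.20. The endothelial markers averaged 5.03 to 5.11, 4.90 to 5.01 and 4.89 to 5.02. For the leukocyte markers it was 4.38 to 4.51, 4.35 to 4.52 and 4.48 to 4.63. The part of these differences in the results was not tested. RNA came from whole cultures, so a change in every cell and a larger change in some cells cannot be told apart.

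The partners of tRNA charging gave 1 called gene among 10 measured with Ac-4-deoxy-GlcNAc against untreated cells, near the 11.0% of all probe sets called. SEPSECS, which makes selenocysteine on its tRNA, fell by 0.55 on the log2 scale with Ac-4-deoxy-GlcNAc against untreated cells (SE 0.12, limma adjusted p = 0.0122) and by 0.64 against Ac-GlcNAc (adjusted p = 0.0120). XPOT, the exporter of tRNA from the nucleus and an ATF4 target, differed by 0.33 with Ac-4-deoxy-GlcNAc against untreated cells (adjusted p = 0.218).

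Several ATF4 targets other than synthetases also rose with Ac-4-deoxy-GlcNAc. Of 32 measured genes that respond to ATF4 or to amino acid shortage, 8 were called higher than in untreated cells and 0 lower. Beside this, 5.38% and 5.64% of all probe sets were called. Of the 7590 probe sets within the synthetase members' range of level, 680 were called higher and 315 lower. The 32 genes had a median difference of 0.22. It was -0.05 over all probe sets and 0.06 over the 7590 within the synthetase members' range of level. The largest were PHGDH and PSAT1 of serine synthesis, at 1.10 (adjusted p = 3.37e-05) and 0.71, PCK2, the mitochondrial PEP carboxykinase, at 0.65, and SLC1A5, a glutamine transporter, at 0.64. TRIB3, a pseudokinase induced by ATF4, rose by 0.55 (adjusted p = 0.00427). ATF4 itself differed by 0.21 (adjusted p = 0.296), DDIT3, a stress transcription factor, by 0.42 (adjusted p = 0.0611), and ASNS, asparagine synthetase, by 0.22 (adjusted p = 0.194). With Ac-GlcNAc none of the 32 was called against untreated cells by limma, beside 0.442% of all probe sets. Of the 32, 9 had an unadjusted limma p under 0.05, all higher. That limit was passed upward by 10.3% of all probe sets and by 1443 of those 7590. The median of the 32 was 0.16, beside -0.02 over all probe sets and 0.11 over those 7590. Between Ac-4-deoxy-GlcNAc and Ac-GlcNAc, 2 were called higher with Ac-4-deoxy-GlcNAc, beside 0.896% of all probe sets.

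Of 28 interferon response genes measured, 6 fell, 0 rose and 22 were not called with Ac-4-deoxy-GlcNAc against untreated cells, beside 5.64% of all probe sets called lower and 5.38% higher. Their median was -0.12, beside -0.05 over all probe sets, and 10 of the 28 were positive. IFITM1 fell by 1.03 on the log2 scale (adjusted p = 0.000688), IFI44L by 0.63, IFI44 by 0.51 and SAMD9 by 0.47, all genes known to be induced by interferons. IRF1, a transcription factor that interferon gamma induces, differed by -0.07 (adjusted p = 0.736). With Ac-GlcNAc against untreated cells none of the 28 was called, beside 0.442% of all probe sets. By unadjusted limma p under 0.05, 6 were lower and 0 higher, beside 16.1% and 10.3% of all probe sets. Their median was then -0.08, beside -0.02 over all probe sets. Between Ac-4-deoxy-GlcNAc and Ac-GlcNAc, 1 was called lower and 0 higher, beside 1.48% and 0.896% of all probe sets.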

How the data were processed

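Total RNA was measured on 9 arrays, 3 flasks per group; p-values measure the spread between flasks. The authors deposited log2 values, 1 per probe set and array, from RMA in Partek with build hg18 (per the submitters' processing notes); versions, settings and scan batches are not given in the sources used here. Signal over background and batches could not be assessed.

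All 9 arrays entered 1 limma 3.58.1 fit in R 4.3.3 (lmFit and eBayes, group as the term, 6 residual degrees of freedom), with Benjamini-Hochberg adjustment over 17859 probe sets. The median SE of a log2 difference was 0.110; the number of arrays limits precision. Probe sets were named from the platform annotation where it gave 1 gene. Tested on simulated arrays with 200 changed probe sets, the fit of Ac-4-deoxy-GlcNAc against untreated recovered 67.0% of 1.5-fold and 93.0% of 2-fold changes, with 7 unchanged ones called. The simulated spread was drawn separately for each probe set, with no shift shared across an array. These rates therefore need not hold for the real arrays, whose SDs differed.

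Members and lists were chosen with earlier results of these data known. Array values are given for called members and their mitochondrial counterparts; further lists give up to 4 called genes and a few fixed regulators. Other settings were a block for the replicate number, then cyclic loess, quantile normalization, median centring, a filter on low levels, array weights, eBayes options, the array SD, the 6 compared arrays and leaving out each array.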

Additional observations from a re-analysis of the deposited data

How the results depend on the processing

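WARS1 kept its call with Ac-4-deoxy-GlcNAc against untreated cells in every setting and without each array in turn, with log2 differences of 0.66 to 0.87. The number of synthetase genes called in that comparison was 3 and became 5 with the replicate block, 5 with trend and robust options and 1 with the array SD as a covariate; leaving out 1 array gave 2 (without Ac-4-deoxy-GlcNAc replicate 3) to 5 (without untreated replicate 1). For Ac-GlcNAc against untreated cells 0 became 5 with array weights and 0 to 3 without 1 array, the 3 being without untreated replicate 1. Between the compounds 1 became 0 with the replicate block and 0 to 1 without 1 array. Over 9 same-numbered pairs of arrays r ran from -0.245 to 0.369, with 3 over 0.1, and over 18 other pairs from -0.402 to 0.406, with 4 over 0.1, so the numbers were not taken to pair the arrays.

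Of all probe sets, the share called for Ac-4-deoxy-GlcNAc against untreated cells was 11.0%, against 3.34% with the array SD, 4.58% with the compared arrays only and 3.38% (without Ac-4-deoxy-GlcNAc replicate 3) to 17.2% (without untreated replicate 1). With Ac-GlcNAc against untreated cells it was 0.442%, against 1.81% with the replicate block, 0.263% with cyclic loess, 0.202% with quantile normalization, 0.179% with median centring, 9.85% with array weights, 0.790% with trend and robust options, 0.0112% with the array SD, 0.269% with the compared arrays and 0.0224% (without Ac-GlcNAc replicate 3) to 7.61% (without untreated replicate 1). Between the compounds it was 2.38%, against 4.60% with the filter, 6.65% with array weights and 0.790% (without Ac-4-deoxy-GlcNAc replicate 1) to 3.69% (without untreated replicate 2).

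With Ac-4-deoxy-GlcNAc against untreated cells the cytosolic median became -0.024 (cyclic loess), -0.033 (quantile) and -0.011 (array weights), and -0.0084 to 0.081 without 1 array; the mitochondrial median became -0.087 (array weights), and -0.052 to 0.056. With Ac-GlcNAc against untreated cells the cytosolic median became -0.0023 (cyclic loess), -0.0050 (quantile), 0.030 (array weights) and 0.023 (array SD), and 0.027 to 0.196; the mitochondrial median became -0.0039 (array weights) and 0.014 (array SD), and 0.040 to 0.215. Between the compounds the cytosolic median became 0.038 (cyclic loess), 0.032 (quantile) and 0.029 (array weights), and -0.061 to 0.051; the mitochondrial median was -0.184 to -0.068 without 1 array. The cause of these shifts was not tested. Averaging several probe sets of a gene was not run, as each measured member had 1.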

Other observations

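Among the other parts of the translation machinery, 4 of 65 mitochondrial ribosomal proteins measured were called with Ac-4-deoxy-GlcNAc against untreated cells (6.15%, beside 11.0% of all probe sets): 1 rose (MRPL39, by 0.32 on the log2 scale) and 3 fell (MRPS33 by 0.68, MRPL22 by 0.47 and MRPS14 by 0.40). TSFM, the mitochondrial elongation factor Ts, rose by 0.68 (limma adjusted p = 0.00325), and was the called gene among 10 mitochondrial translation factors, a share near that of all probe sets. Of 29 cytosolic translation factors 3 rose and 0 fell (10.3%, again near 11.0%), namely the initiation factor genes EIF4H, EIF2S3 and EIF3J, by 0.68, 0.41 and 0.38.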
